A study of Saccharomyces cerevisiae with 4 samples.

Results

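The 7 genes PRM5, NCW2, DFG5, PST1, FBP26, CRG1 and KDX1 are known outputs of Rlm1, the transcription factor that acts at the end of the yeast cell wall integrity pathway. They were chosen by name, with earlier results of these data known, as 7 of the 6207 yeast gene rows measured, and each has a row of its own. Saccharomyces cerevisiae cells of a hog1 mutant, altered in the gene of the osmotic stress kinase Hog1, were grown in YEPD at 24 °C. Each culture was divided, so that a part exposed to Zymolyase 100T at 5 units/ml for 3 h was compared with a part that grew on untreated, and the hog1 alteration was shared by treated and untreated cells. Zymolyase is an enzyme preparation that digests the beta-1,3-glucan of the wall. RNA of 2 cultures was hybridised on 4 arrays, with 2 dyes per array and a dye swap. RNA of treated cells was labelled with Cy5 for arrays 2 and 4 and with Cy3 for arrays 1 and 3. The labels give neither the hog1 allele nor the arrays that share a culture, no wild-type array was analysed here, and the row of HOG1 was blank on all 4 arrays.

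When the wall is damaged, membrane sensors of the Wsc and Mid families activate the small GTPase Rho1 and, through the kinase Pkc1, a cascade that ends in the mitogen-activated protein kinase Slt2. Slt2 phosphorylates Rlm1, a MADS-box factor that drives genes for wall proteins, wall enzymes and signalling proteins. In wild-type yeast the Hog1 pathway is known to take part in the response to Zymolyase, upstream of Slt2. The comparison asked how transcripts change in hog1 mutant cells when the wall is digested.

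Values are log2 ratios of Zymolyase over untreated. A value of 1 stands for a level 2-fold higher in treated cells. This direction is likely and not stated in the sources used here. It rests on PRM1, PRM3 and PRM6, mating genes that are nearly silent in resting cells and lie far above 0 when read this way. The deposited digits show that the arrays share a numerator, not which condition it is. With the opposite numerator every sign below would turn.

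Of the 7 genes, 1 rose past the test in treated cells. PRM5, which encodes a membrane protein named for its regulation by mating pheromone and also induced by wall stress, was 9.0-fold higher in treated cells. NCW2, a gene for a wall protein held by a lipid anchor, and DFG5, a gene for a membrane-anchored enzyme of the mannosidase family that acts in wall assembly, had values above 0 on all 4 arrays but did not pass the test. PST1, a gene for a wall protein that is released by regenerating protoplasts, was near 0. FBP26, CRG1 and KDX1 were blank on at least 2 arrays and could not be tested.

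**Figure D1:**
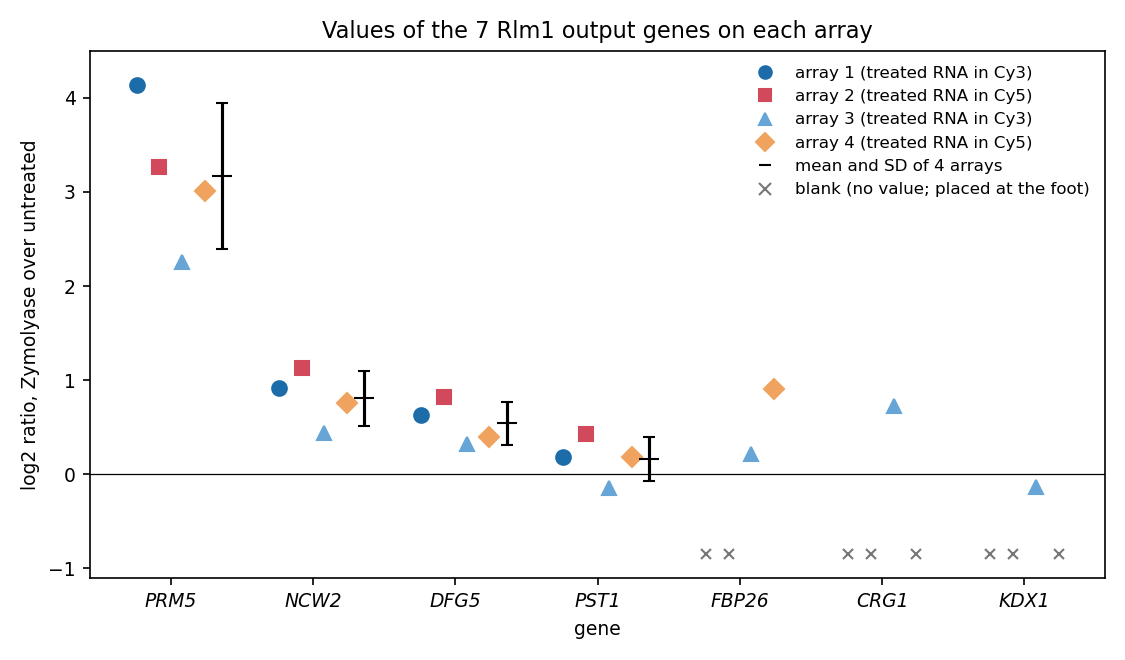
Log2 ratio of Zymolyase over untreated (vertical axis) for each of the 7 genes (horizontal axis), with a symbol for each array, the mean and SD where all 4 arrays gave a value, and a cross at the foot for each blank. PRM5 lies between 2.26 and 4.14, above every value of the other 6 genes, and FBP26, CRG1 and KDX1 have 2, 1 and 1 values.

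Among the membrane and wall proteins, PRM5 (YIL117C) had log2 ratios of 4.14, 3.27, 2.26 and 3.01 on arrays 1 to 4. All of these lay far above 0, and the lowest, on array 3, was a 4.78-fold difference. The mean was 3.17 ± 0.78 (SD, n = 4 arrays) with a 95% interval of 2.48 to 3.85, and the adjusted p was 0.0077 by limma on culture means. In order of mean ratio PRM5 was 10 of the 2715 genes tested. With treated RNA in Cy5 its mean was 3.14, and with treated RNA in Cy3 it was 3.20. Without array 2 the mean was 3.14 and the call was lost (adjusted p = 0.0854 by limma), and it was also lost with the arrays brought to equal scale (mean 3.26, adjusted p = 0.102 by limma).

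NCW2 (YLR194C) had 0.92, 1.13, 0.44 and 0.75 on arrays 1 to 4. Every value was above 0, array 2 was the highest and array 3 the lowest. Its mean was 0.81 ± 0.29 (SD, n = 4 arrays), which is 1.75-fold, and its rank was 85 of 2715. The 95% interval, not adjusted for the number of genes tested, was 0.40 to 1.22. By limma the unadjusted p was 0.00359 and the adjusted p 0.106. NCW2 passed in 7 of 19 alternative settings and did not pass in 12. It passed with 4 arrays taken as separate observations (adjusted p = 0.0234 by limma), though these come from 2 cultures. A fit without array 3, its lowest, also passed, with a mean of 0.93 (adjusted p = 0.00169 by limma). That fit gave PRM5 an adjusted p of 1.02e-15 by limma from 2 culture means, so the spread of the single gene counted little there. NCW2 did not pass without array 2 (mean 0.70, adjusted p = 0.463 by limma) or with the arrays at equal scale (0.86, adjusted p = 0.248 by limma).

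DFG5 (YMR238W) had 0.63, 0.82, 0.32 and 0.39 on arrays 1 to 4. These were above 0 on 4 of 4 arrays, with arrays 3 and 4 below arrays 1 and 2. The mean was 0.54 ± 0.23 (SD, n = 4 arrays), 1.46-fold, at rank 157 of 2715. The 95% interval, not adjusted for the number of genes tested, was 0.15 to 0.93. By limma the unadjusted p was 0.0154 and the adjusted p 0.243.

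PST1 (YDR055W) had 0.18, 0.42, −0.15 and 0.19 on arrays 1 to 4. Array 3 was below 0 and the others above, so the values span 0. The mean of 0.16 ± 0.24 (SD, n = 4 arrays) had an adjusted p of 0.631 by limma and a 95% interval of −0.20 to 0.52, so a rise of up to 1.44-fold or a fall to 0.869-fold stays within the error. With treated RNA in Cy5 its mean was 0.31, and with treated RNA in Cy3 it was 0.02.

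Of the 4 tested genes, 1 was called higher and 0 lower by limma, where 2.03% of all 2715 tested genes were called higher and 0.184% lower. At an unadjusted p under 0.05, 3 of the 4 were higher and 0 lower, beside 8.14% and 6.59% of all tested genes. All 4 values were above 0 for 3 of the 4 genes and for 9.83% of tested genes. The median of the 4 means was 0.68, beside −0.05 over all tested genes. The other 3 of the 7 genes are outside these counts, because a blank on any array kept a row out of the test. As the genes were chosen with earlier results of these data known, the counts beside these shares are a description.

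**Figure D2:**
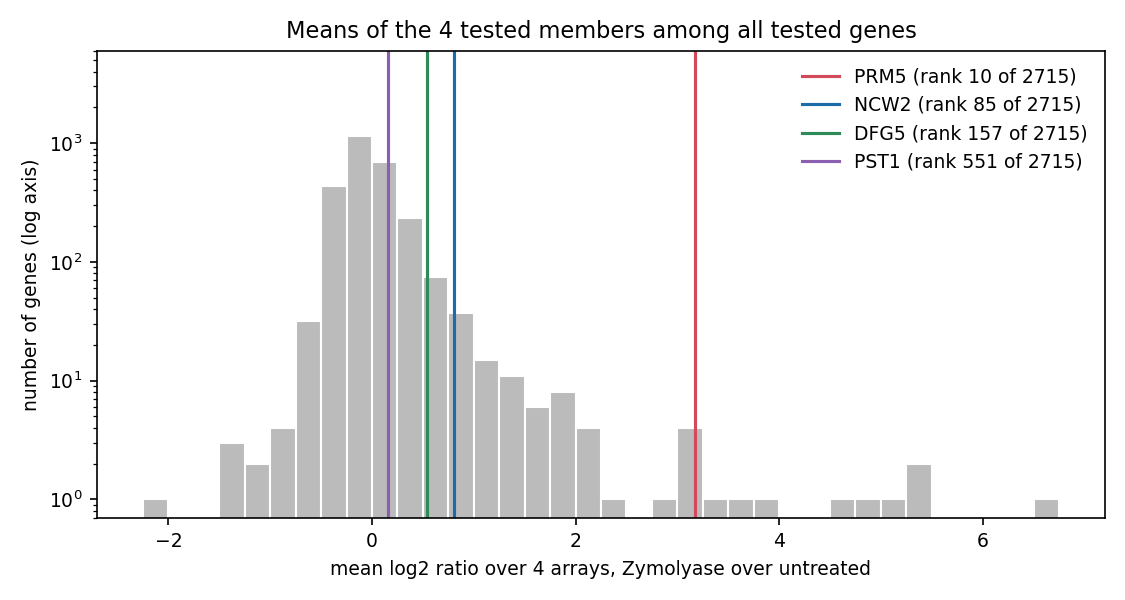
Number of tested genes (vertical log axis) by mean log2 ratio over 4 arrays (horizontal axis), with a line for each of the 4 tested Rlm1 output genes. PRM5 stands in the far upper tail at 3.17, NCW2 and DFG5 lie on the upper shoulder at 0.81 and 0.54, and PST1 at 0.16 lies in the bulk.

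The 4 tested genes kept 1 order on every array: PRM5 above NCW2, NCW2 above DFG5, and DFG5 above PST1. PRM5 exceeded NCW2 by 2.36 ± 0.60 on the log2 scale (SD, n = 4 arrays), with differences of 1.82 to 3.22. NCW2 exceeded DFG5 by 0.27 ± 0.11, with differences of 0.11 to 0.36. DFG5 exceeded PST1 by 0.38 ± 0.12, with differences of 0.21 to 0.47. The differences among NCW2, DFG5 and PST1 thus had smaller SDs than the values of these 3 genes themselves. Each of the 6 pairs compared had the same sign on 4 of 4 arrays. The 4 arrays come from 2 cultures and are not 4 independent samples, and an exact two-sided sign-turn test over 2 cultures cannot go below p = 0.5, so the order is a description with no test.

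Array 3 gave the lowest value for all 4 of these genes, and array 2 the highest for NCW2, DFG5 and PST1. Array 3 was the lowest for 34.5% of the 55 genes called higher and for 27.1% of all tested genes. Whether this came from a culture or from the array cannot be told apart, since the labels do not say which arrays share a culture.

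**Figure D3:**
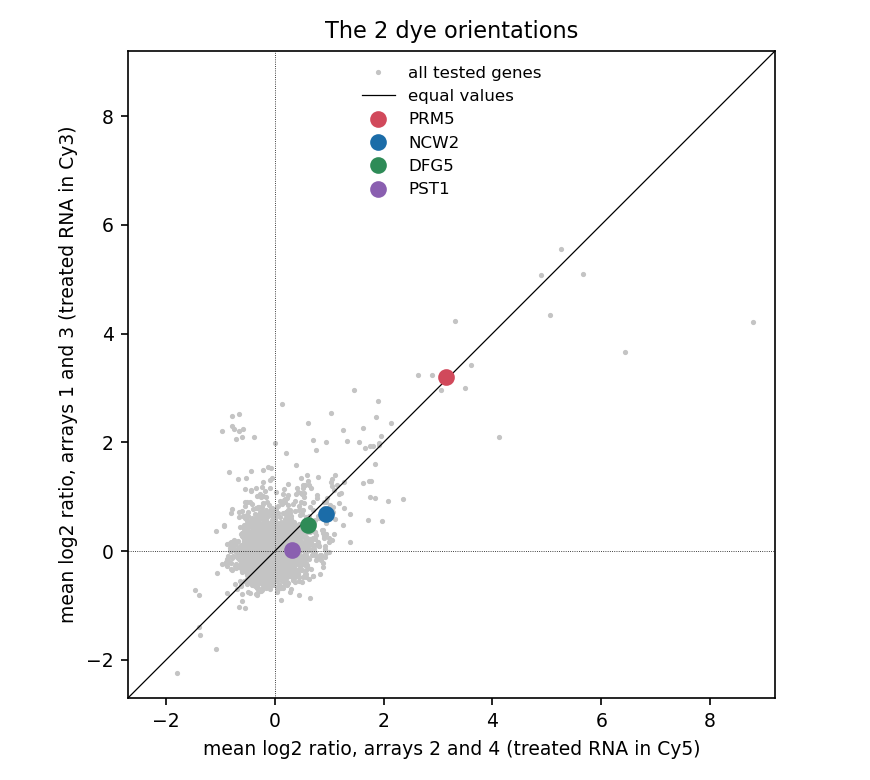
Mean log2 ratio on arrays 2 and 4, with Cy5 on treated RNA (horizontal axis), against the mean on arrays 1 and 3, with treated RNA in Cy3 (vertical axis), for 2715 tested genes in grey and the 4 tested Rlm1 output genes in colour. PRM5 sits on the line of equal values at 3.14 and 3.20, and NCW2, DFG5 and PST1 sit slightly below it, with Cy5 minus Cy3 differences of 0.26, 0.13 and 0.29.

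Agreement between arrays was measured by rank and by value. By rank across the 2715 genes, which are not independent replicates, Spearman rho was −0.0023 to 0.185 for pairs of arrays with opposite dyes and 0.364 and 0.434 for pairs with the same dye. Pearson r was 0.243 to 0.566 for opposite dyes and 0.544 and 0.689 for the same dye, so by value the 2 kinds of pair overlap. The part of the dye in these differences was not tested. The Cy5 minus Cy3 difference had 5th and 95th percentiles of −0.85 and 0.63 over tested genes. The differences of NCW2, DFG5 and PST1 lay inside that range, and that of PST1, 0.29, was larger than its mean of 0.16. Arrays 1 to 4 gave values for 2794, 4162, 5322 and 5127 of the 6207 rows, and 729 rows had none.

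Among the genes for enzymes and kinases, FBP26 (YJL155C), which encodes the phosphatase that degrades the glycolytic regulator fructose 2,6-bisphosphate, had 0.22 and 0.91 on arrays 3 and 4 and blanks on arrays 1 and 2. Both values were above 0, and they differ by 0.69 between arrays of opposite dye orientation. Array 3 placed FBP26 above 73.5% of its rows and array 4 above 97.4% of its rows. Of the 964 rows with values on arrays 3 and 4 alone, 28.3% had both above 0.

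CRG1 (YHR209W), a gene for a methyltransferase that acts in lipid homeostasis and in resistance to the drug cantharidin, had a single value of 0.72, on array 3. This was 1.65-fold and above 91.1% of the values on that array. KDX1 (YKL161C), also called MLP1, encodes a protein related to Slt2 in sequence that works with Rlm1, and its single value of −0.13 was also on array 3. It lay above 45.2% of the values there, in the middle of the array. There were 242 rows with a value on array 3 alone, of which 35.1% were above 0, and CRG1 was 13 and KDX1 108 in descending order among them. The rule that left values blank is not given in the sources used here, so a blank says nothing of the level, and with 1 array neither gene has a replicate check or a dye swap. Counting every value present, 5 of the 7 genes had values above 0 alone, where 16.2% of the 5478 rows with any value did. That share pools rows with unequal numbers of values. It was 9.83% for rows with 4 values, 28.3% for arrays 3 and 4 alone and 35.1% for array 3 alone.

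Relatives in sequence were set beside the members, from a list of 6 paralogues. YNL058C, the paralogue of PRM5, had 1.39, 1.83, 1.17 and 1.63 on arrays 1 to 4. All 4 values were above 0, and it was called higher with a mean of 1.51 ± 0.29 (SD, n = 4 arrays; adjusted p = 0.00869 by limma), 2.84-fold beside 9.0-fold for PRM5. Without array 2 its mean was 1.40 and the call was lost (adjusted p = 0.1 by limma), as it was at equal scale (1.55, adjusted p = 0.0782 by limma). SLT2, the kinase to which KDX1 is related, was called higher with a mean of 1.44 ± 0.25. ECM33, the wall protein gene related to PST1, had 0.61, 0.57, −0.17 and 0.73 on arrays 1 to 4, and like PST1 it was below 0 on array 3 alone. Its mean of 0.43 ± 0.41 did not pass (adjusted p = 0.292 by limma). DCW1, which shares an essential function with DFG5, had −0.00, 0.21, −0.38 and −0.53, a mean of −0.18 ± 0.34 (adjusted p = 0.67 by limma). PFK26 and PFK27, genes for kinases that make the regulator FBP26 degrades, were not tested, and PFK26 had 0.76 and 0.40 on arrays 3 and 4, while PFK27 had −0.28, −0.06 and 0.07 on arrays 2, 3 and 4. Whether labelled cDNA of a gene also bound its paralogue's spot was not tested.

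Other genes of the pathway were counted from lists. In the cell wall integrity cascade, from sensors to transcription factors and phosphatases, 10 of 21 genes were tested. By limma 4 rose and 0 fell, beside 2.03% higher and 0.184% lower over all tested genes. At an unadjusted p under 0.05 there were 5 higher and 0 lower, beside 8.14% and 6.59% of all tested genes. The largest were SLT2 itself, MSG5, a phosphatase that acts on MAP kinases including Slt2 (1.36 ± 0.45, adjusted p = 0.00996 by limma), and WSC2, a wall sensor (1.27 ± 0.04, adjusted p = 0.0115 by limma). RLM1, named after its values were seen, had 1.13 and 0.85 on arrays 3 and 4 and blanks on the others. Of all rows with values on arrays 3 and 4 alone, 28.3% had both above 0. Among the untested cascade genes with a value, RLM1, WSC3 and PTP2 had values above 0 alone. SWI4 and SDP1 had values below 0 alone, and TUS1, PKC1, BCK1, MKK2 and SWI6 had values of both signs. Without array 2, 0 of the 10 were called by limma, with 4 higher at an unadjusted p under 0.05, and SLT2, MSG5 and WSC2 had means of 1.32, 1.27 and 1.26 and adjusted p of 0.0854, 0.129 and 0.0905 by limma. At equal scale MSG5 was the 1 cascade gene called (1.38, adjusted p = 0.0439 by limma), and SLT2 and WSC2 had adjusted p of 0.0671 and 0.0569 by limma. The list's median was 0.32.

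Of 17 other genes known to respond to wall stress, 13 were tested. By limma 6 rose and 0 fell, beside 2.03% higher and 0.184% lower over all tested genes. At an unadjusted p under 0.05 there were 12 higher and 0 lower, beside 8.14% and 6.59% of all tested genes. NFG1 (3.51 ± 0.62, adjusted p = 0.00255 by limma) and SVS1, a gene for a wall and vacuole protein (2.33 ± 0.72, adjusted p = 0.0118 by limma), rose, while CWP1, a gene for a wall mannoprotein, had 3.01 ± 1.43 and did not pass (adjusted p = 0.0824 by limma). The median of the 13 means was 0.88. Of the 13, NFG1 alone had a mean above that of PRM5, and 8 had a mean above that of NCW2. Without array 2, SVS1 was the 1 gene of the 13 called by limma (2.34, adjusted p = 0.0322), and NFG1 had a mean of 3.49 (adjusted p = 0.0597 by limma). With the arrays at equal scale neither was called, with means of 2.41 for SVS1 (adjusted p = 0.115 by limma) and 3.58 for NFG1 (adjusted p = 0.0661 by limma).

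PRM5 shares its name with a group of pheromone-regulated membrane protein genes. Of the 9 others, 7 were tested and 6 rose by limma, beside 2.03% of all tested genes. At an unadjusted p under 0.05 there were 7 higher, beside 8.14% of all tested genes, and the median was 2.93. PRM1 (6.51 ± 3.01), PRM3 (5.05 ± 1.60) and PRM6 (4.70 ± 0.50), of which PRM1 and PRM3 act in cell and nuclear fusion during mating, were the 3 with means above that of PRM5. Since these 3 genes were used to read the direction, their sign is no independent evidence of it. At equal scale PRM1 was not called (6.86, adjusted p = 0.0895 by limma). The Cy5 minus Cy3 difference was 4.57 for PRM1 and 2.77 for PRM3, beside −0.06 for PRM5. The part of mating signalling in the value of PRM5 was not tested.

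**Figure D4:**
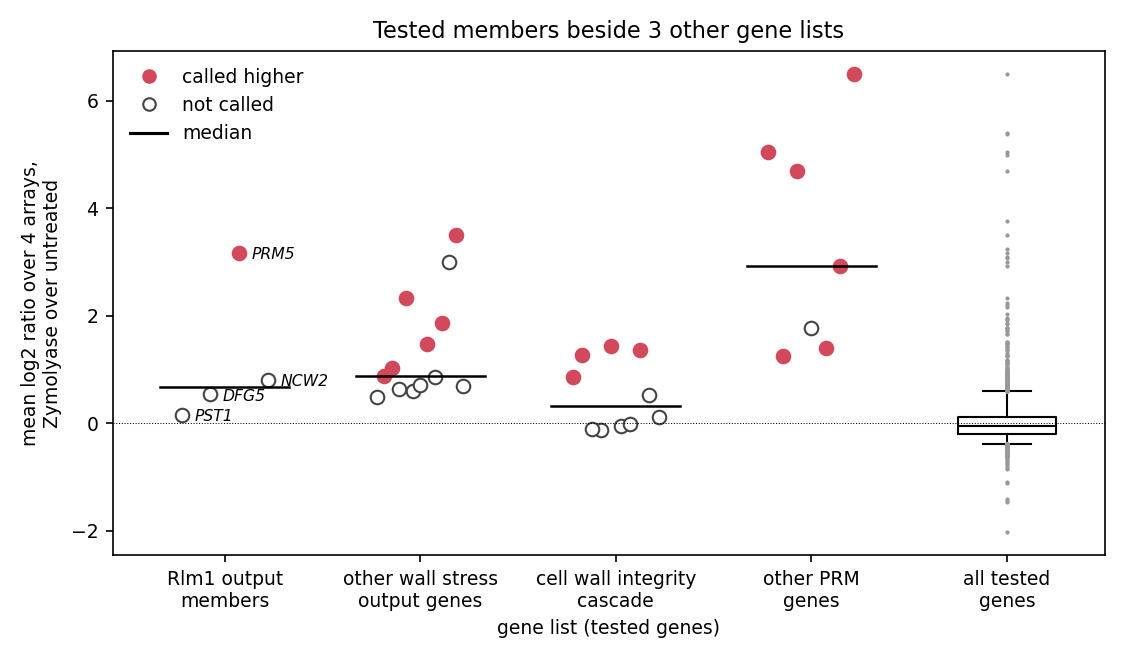
Mean log2 ratio over 4 arrays (vertical axis) of the tested genes of 4 lists, filled where called higher, with the median as a line, beside a box for all 2715 tested genes (quartiles, whiskers at the 5th and 95th percentiles). The 4 tested Rlm1 output genes span 0.16 to 3.17, the other wall stress genes 0.50 to 3.51, the cascade −0.12 to 1.44 and the other PRM genes 1.25 to 6.51.

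The tested genes most like each member over the 4 arrays were found by the root mean square difference of their log2 ratios. For PRM5 they were NFG1 (difference 0.40), ASG7 (0.53) and PRM2 (0.62). NFG1 had 4.16, 3.56, 2.66 and 3.63 on arrays 1 to 4, with the same highest and lowest arrays as PRM5. For NCW2 they were IAH1, YMR315W and FDC1 (0.20 each), none of which passed the test. For DFG5 they were CAP2 (0.08), which encodes a subunit of the actin capping protein, SHO1 (0.13), which encodes a membrane protein of the Hog1 pathway, and KRE1 (0.14), which encodes a wall protein of beta-glucan assembly. For PST1 they were YPR148C (0.05), HOC1 (0.05) and YLR179C (0.08), a likeness among values near 0. Likeness over 4 arrays of 1 comparison also takes in what the arrays share.

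The 14 genes next to the 7 members on their chromosomes were set beside them. Of these, 13 had a value, all between −0.71 and 0.68. Of the 9 that were tested, limma called 0, and 0 had an unadjusted p under 0.05. Over all tested genes 2.03% were called higher and 0.184% lower, and 8.14% and 6.59% passed unadjusted, so 0 of 9 says little. HIS5, which lies on the upstream side of PRM5, had 0.26, 0.27, 0.16 and 0.37 on arrays 1 to 4, and RHO3, on the downstream side, had 0.20, 0.16, −0.04 and −0.05. Both stayed far below the 2.26 to 4.14 of PRM5.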

How the data were processed

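Each cell of the table the authors deposited is a log2 ratio of an array's 2 channels; per the labels' protocols, total RNA was labelled with Cy3 or Cy5. Scanner, background correction, normalization, blanking rule, genome build and numerator were not given in the sources used here. Arrays 2 and 4 had their signs turned. All 9286 turned values under 0 were then base-2 logarithms of a ratio with 4 decimals (57.03% by chance), so the 4 arrays share a numerator. The 2 control rows were left out. All 7 members matched a locus tag of RefSeq assembly R64, as did 5654 of 6207 rows.

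The 2715 rows with 4 values were tested. Arrays were averaged per culture (n = 2) under each of the 2 possible dye-swap pairings, fitted against 0 with limma 3.58.1 (R 4.3.3), and the larger p kept and adjusted by the Benjamini-Hochberg method (threshold 0.05). The 95% intervals are the wider of the 2 pairings and are not adjusted for the number of genes tested. An interval can therefore exclude 0 where the adjusted p does not pass. The number of arrays limits the precision. The fit was tested on simulated data with independent noise on each array and no shared culture or dye part. The simulation therefore does not cover data where arrays share a culture or a dye effect. Members and lists were chosen with earlier results of these data known. Named genes were the members, 6 paralogues, the 3 largest means per list, the 3 genes most like each member, and chromosome neighbours; RLM1 was added after its values were seen. Alternatives covered the pairing, dye term, block, centring, scale, variance model, row filter and left-out arrays.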

Additional observations from a re-analysis of the deposited data

Results flagged for a closer look

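Among 36 named genes measured on all 4 arrays, 1 had a single array far from the rest, where chance gives about 1.8. ECM33, the paralogue of PST1, was −0.17 on array 3, against 0.57 to 0.73 on the other 3 arrays.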

How the results depend on the processing

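In 19 alternatives PST1 kept a mean above 0 and was called in none (adjusted p 0.395 to 1 by limma). PRM5, NCW2 and DFG5 were above 0 on every array, so any choice of arrays gives them a mean above 0. Their sign across the alternatives is therefore no check. PRM5 was called in 16 of 19, with means of 2.85 to 3.47 when 1 array was left out, and was lost at equal scale (3.26), without array 2 on the same rows, and on all rows of arrays 1, 3 and 4 (3.14, adjusted p = 0.0823 by limma). The 19 are not separate checks. The pairing of arrays 1+2 and 3+4 gave the main PRM5 result again. Each left-out array entered both on the same rows and on all rows. NCW2 was called with arrays 1+4 and 3+2 as pairs, with 4 separate arrays, with or without a dye term, and with the culture as a random block (0.81 each), on all rows of arrays 1, 2 and 4 (0.93), and on the Cy5-treated arrays alone (0.94); without 1 array it was 0.70 to 0.93. DFG5 was called with arrays 1+4 and 3+2 as pairs and with the culture as a random block (0.54 each). Without 1 array it was 0.45 to 0.61. With arrays 1+4 and 3+2 as pairs, limma gave every gene a common variance. The spread of the single gene thus did not count in the calls of NCW2 and DFG5 under that pairing. On all rows of arrays 1, 2 and 4, PRM5 had an adjusted p of 1.06e-12 by limma from 2 culture means. In the call of NCW2 on those rows the spread of the single gene thus counted little. Genes called over the table numbered 60 and moved to 277 with arrays 1+4 and 3+2 as pairs (72.9% higher, against 91.7%), 97 and 119 for 4 arrays without and with a dye term, 149 with the random block (79.9% higher), 31 at equal scale, 22 and 129 on all rows of arrays 1, 3 and 4 and of arrays 1, 2 and 4 (77.5% higher), and 141 on the Cy3-treated arrays alone. Without 1 array they ranged from 22 (array 2) to 129 (array 3). Leaving out 1 array leaves 1 culture without its dye swap. Cascade genes called higher moved from 4 to 1 at equal scale and 0 on arrays 1, 3 and 4, and ranged from 0 to 5 without 1 array. Other wall stress genes moved from 6 to 13 with arrays 1+4 and 3+2 as pairs, 10 with a dye term, 12 with the random block, 1 at equal scale and 1 on arrays 1, 3 and 4, and ranged from 1 to 9 without 1 array. The other PRM genes stayed between 4 and 7. The cause of these shifts was not tested. A planned search of promoters for the Rlm1 box was not run, as no promoter sequence was used here. Every fit is paired by culture, since each array sets the treated against the untreated part of the same divided culture.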
